A study of Mus musculus with 2 samples.

Results

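Kinesin genes were followed through the single-cell transcriptome of the mouse testis. A row of the count matrix was taken as a kinesin row where its gene symbol starts with Kif or Kifc and a digit, without symbols that contain -ps, which mark pseudogenes. This gave 43 of 51868 rows. Of these, 41 are motor genes. Kif1bp encodes a protein that binds kinesins, and Kif16bos is an antisense RNA gene, so both match by name and not by function. The samples were testes of 2 untreated wild-type C57Bl/6J mice at 8 weeks of age, with 1 droplet library per mouse. Each count is a unique molecular identifier (UMI), a tag that counts a captured RNA molecule once at its 3′ end, and 1237 cells of mouse 1 and 1315 cells of mouse 2 gave 27450497 and 30302332 UMIs. There was no treatment, so the comparisons run between cell classes along spermatogenesis, with the mice as the 2 replicates. The same 2 animals gave all classes, and a p-value measures only the spread between them.

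Kinesins are motor proteins that use ATP to move along microtubules or to take their ends apart. In dividing spermatocytes they build the spindle, align chromosomes and complete cytokinesis, and in spermatids they work at the flagellum, at the manchette, a microtubule skirt that shapes the nucleus, and in the transport of cargo. Heavy chains of transport kinesins usually act together with light chains or adaptor proteins.

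Cells were grouped by K-means clustering from which the 43 kinesin rows and 23 partner genes of kinesins had been left out, and clusters were named from marker genes. The classes were early spermatocyte-like (164 cells), pachytene or later spermatocyte-like (526), round spermatid-like (448) and elongating or condensing spermatid-like (707). A further cluster of 689 cells had its highest mean standardised marker level for round spermatids (0.490), ahead of pachytene or later spermatocytes (0.324). It was left without a name, because only 1 of the 10 round spermatid markers passed 1.5 times the level of all cells. Of the 10 pachytene markers, 2 passed this level in it. Summed markers of pachytene or later spermatocytes stood at 4615 CPM (counts per 1000000 UMIs) in this cluster. They stood at 4578 in the early class, 5816 in the pachytene class and 2636 in the round class. The summed round spermatid markers of the unnamed cluster stood at 2247 CPM, or 51.3% of the 4380 in the round class, against 115 in the pachytene class. Spermatogonium-like (6 cells), Sertoli-like (7) and Leydig-like (5) clusters were too small for a test. In the 4 large classes 8 of 12, 6 of 10, 9 of 10 and 13 of 13 markers of their own lists passed this level. The names were given from these same markers, so the counts are no independent check of them. The 13 markers of elongating or condensing spermatids summed to 145793 CPM in their own class and to 3426 CPM, or 2.35% of that level, in pachytene cells, and the 10 round spermatid markers stood at 2.62% of their own class there. In early cells these shares were 3.39% and 2.70%. Low levels of kinesin rows in spermatocytes are set beside these shares, also in plain CPM. No barcode was shared between the mice.

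Kinesin rows received 105307 UMIs, or 0.182% of all UMIs, and 42 of the 43 rows had at least 1 UMI. The 27 rows with 300 or more UMIs held 98.8% of them and are described below with their values in each mouse. Since each molecule is counted once at its 3′ end, the counts were not divided by transcript length, and shares between genes are shares of tagged molecules. Of the 27 rows, 13 overlap an annotated gene of the opposite strand, and although the authors looked at antisense reads as a quality check, the strand rule of the counting is not given in the sources used here. In plain CPM, all kinesin rows together took 1236 and 1074 CPM in early spermatocyte-like cells of mouse 1 and mouse 2. They took 1445 and 1393 in pachytene, 1807 and 1907 in unnamed, 2250 and 2361 in round and 2032 and 2296 in elongating or condensing cells. The round class had 2.01 ± 0.27 times (SD, n = 2) the level of the early class, and 3.05 ± 0.17 times with TMM (trimmed mean of M-values, a scaling that assumes most rows to be equal). Elongating or condensing cells had 0.938 ± 0.049 times the level of round cells in plain CPM, but 1.71 ± 0.085 times with TMM, so that the order of these classes depends on the scaling. Kif2b, a member of the sub-family that takes microtubule ends apart, changed most in this sum. Kif2b gave 3.63% and 2.88% of kinesin UMIs in early spermatocyte-like cells, 22.8% and 27.3% in the unnamed cluster and 49.2% and 50.6% in round spermatid-like cells. Without Kif2b the sums lay between 1044 and 1420 CPM in every large class and mouse. With TMM they were not level, at 773 and 757 normalised CPM in early and 2301 and 2364 in elongating or condensing cells. Between these they changed little, at 1219 and 1113 in pachytene, 1220 and 1239 in unnamed and 1195 and 1221 in round cells.

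**Figure D1:**
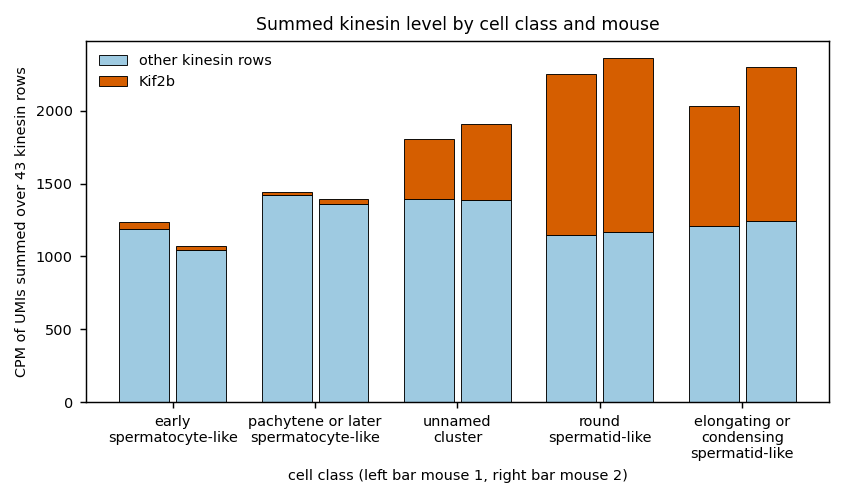
Stacked bars give the CPM (plain share of UMIs, y axis) of the 43 kinesin rows summed in each large cell class (x axis), with the left bar for mouse 1 and the right bar for mouse 2, and with Kif2b set apart from the other kinesin rows. In this plain scale the blue parts lie between 1044 and 1420 CPM, while Kif2b reaches 49.2% and 50.6% of the bar in round spermatid-like cells.

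From here on, levels are normalised CPM, in which the total of each sum was scaled by TMM, given for mouse 1 and then mouse 2. Of the 27 rows, 3 had their highest level in early spermatocyte-like cells (Kif1b, Kif5b, Kif6) and 8 in pachytene cells (Kif2a, Kif3b, Kif11, Kif16b, Kif18a, Kif20b, Kif23, Kifc1). A further 5 were highest in the unnamed cluster (Kif3a, Kif9, Kif18b, Kif20a, Kif22), 3 in round cells (Kif1bp, Kif17, Kif21a) and 8 in elongating or condensing cells (Kif2b, Kif2c, Kif5c, Kif15, Kif16bos, Kif21b, Kif27, Kifc3). The mice gave the same class for 24 of 27, and for 20 of 27 the highest class lay above the second in both mice without overlap. The same counts were not made over all rows, so they cannot be read as a trait of kinesin rows. With UMIs per cell in place of normalised CPM, 18 of 27 kept their class, and the numbers by class became 4, 13, 0, 6 and 4.

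**Figure D2:**
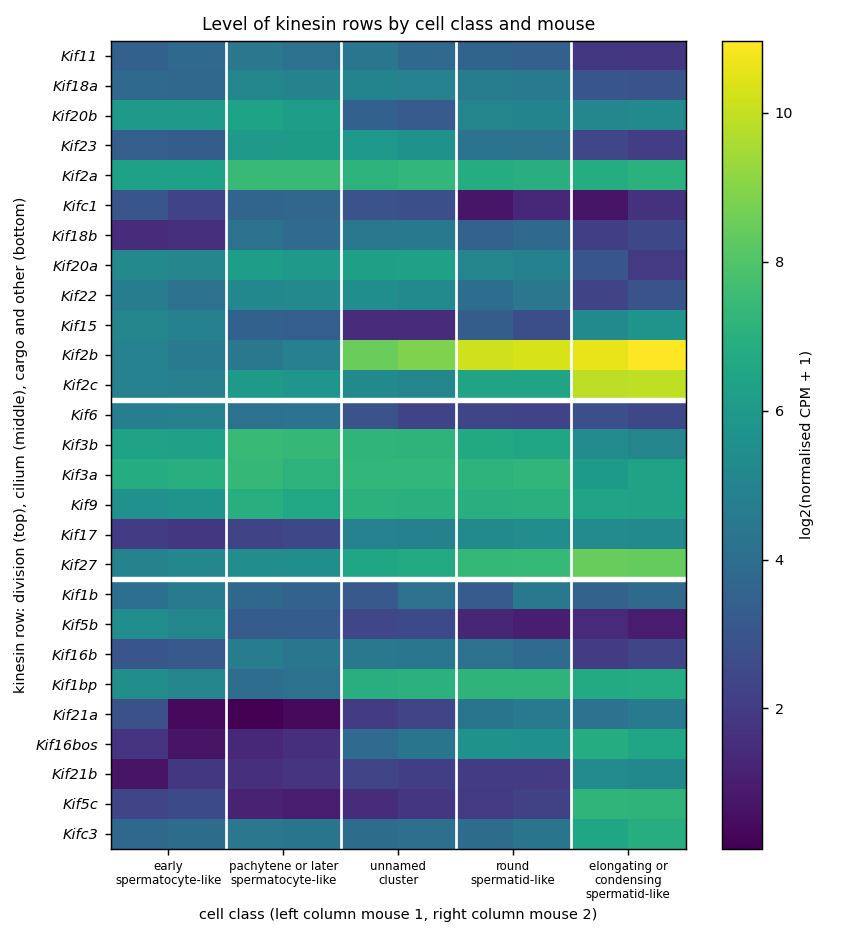
Colour gives log2(normalised CPM + 1) of the 27 kinesin rows with 300 or more UMIs (y axis) in 5 cell classes (x axis), with a column for each mouse and white lines between roles. The brightest cells are Kif2b in round and elongating or condensing cells, at 1156 to 2003 normalised CPM, and the columns of the mice look alike within each class.

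Adjacent classes were compared to ask which kinesins change as cells pass through meiosis and then through spermatid differentiation. Each comparison used edgeR's quasi-likelihood test on UMIs summed per mouse and class, with Benjamini-Hochberg adjustment over 15003 rows, and all adjusted p-values below come from it. Of the 43 kinesin rows, 37 passed the filter on low counts. From early to pachytene or later spermatocyte-like cells, 15 kinesin rows rose and 9 fell, where 24.7% of all tested rows rose and 23.5% fell. From pachytene to round spermatid-like cells 9 rose and 16 fell, against 36.9% and 37.2% of all rows. From round to elongating or condensing cells 10 rose and 12 fell, against 27.0% and 25.9%. The median log2 fold changes of the tested kinesin rows were 0.42, -0.45 and 0.04 in these steps, beside 0.00110, -0.10 and -0.03 over all rows.

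By role, division kinesins leaned to opposite sides in the first 2 steps. Of the 15 division kinesins, 10 rose and 1 fell from early to pachytene cells. From pachytene to round cells 2 rose and 10 fell. The leading direction of both steps held 66.7% of them, beside the 24.7% and 37.2% of all rows. From round to elongating or condensing cells 3 rose and 6 fell (20% and 40%, beside 27.0% and 25.9% of all rows). Of the 8 tested kinesins of the cilium and flagellum, 4, 2 and 2 rose in the 3 steps (50%, 25% and 25%). In turn 2, 3 and 4 fell (25%, 37.5% and 50%). Of the 14 tested rows of cargo transport and other roles, 1, 5 and 5 rose (7.14%, 35.7% and 35.7%). In turn 6, 3 and 2 fell (42.9%, 21.4% and 14.3%). Over all rows 24.7%, 36.9% and 27.0% rose and 23.5%, 37.2% and 25.9% fell. Several shares of cilium and cargo rows lay near these. Among the described rows, the largest falls from pachytene to round cells were those of Kifc1 (-3.25 ± 0.38 SE on the log2 scale), Kif5b (-2.83 ± 0.35), Kif6 (-2.10 ± 0.26) and Kif23 (-1.83 ± 0.16), 1 or 2 from each role. Kifc1 and Kif5b had few UMIs left in round cells, 3 and 9 for Kifc1. The largest rises, apart from Kif21a with its few UMIs in pachytene cells, were those of Kif2b (5.64 ± 0.21), Kif16bos (4.78 ± 0.25) and Kif17 (3.23 ± 0.18). The 10 falls of division kinesins in this step include 2 rows with few UMIs, Kif14 and Kifc5b. The 10 rises from early to pachytene cells include Kif4, which had few UMIs and was not called by DESeq2. They also include Kif22 and Kif11, whose calls were lost when scaled by total UMIs.

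**Figure D3:**
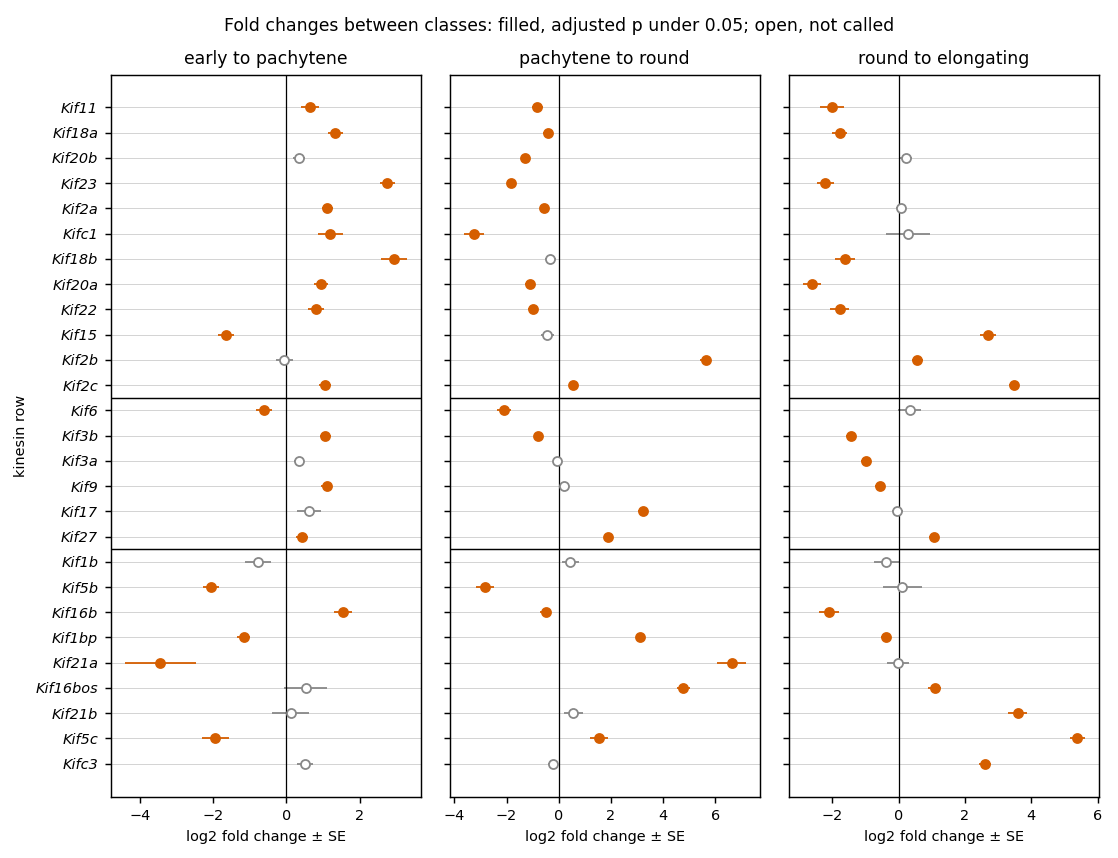
Points give the log2 fold change (x axis, bars are standard errors worked back from the F statistic of the edgeR test) of the 27 described kinesin rows (y axis) in 3 comparisons of adjacent cell classes, filled where the adjusted p was under 0.05, with lines between division (top), cilium (middle) and cargo and other rows (bottom). Most division kinesins lie right of 0 in the first panel and left of 0 in the second, and Kif2b, Kif2c and Kif15 lie right of 0 in the third.

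The Kif2 genes, whose products depolymerise microtubules, followed 3 different courses. Kif2a, which works at spindle poles, had 80.3 and 80.3 normalised CPM in early and 174 and 174 in pachytene cells and rose between them (log2 fold change 1.12 ± 0.14 SE, adjusted p = 1.6e-06). It fell to 112 and 122 in round cells (-0.58 ± 0.13, adjusted p = 0.00062), and its level in elongating or condensing cells was 113 and 131. In every class and mouse Kif2a lay between 80.3 and 174 normalised CPM.

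Kif2b, known from spindle assembly, had 29.1 and 22.5 normalised CPM in early and 20.9 and 27.7 in pachytene cells. In plain CPM these were 3.05% and 2.44% of the level in round cells, within the range of the spermatid markers there (2.70% and 3.39% in early, 2.35% and 2.62% in pachytene cells), and how much of them is background was not tested. Its level was 361 and 464 in the unnamed cluster and 1156 and 1252 in round cells, a rise from pachytene cells by 5.64 ± 0.21 on the log2 scale (adjusted p = 3e-15). All spermatid values lay above all spermatocyte values. A Kif2b UMI was found in 100% of 448 round cells (exact 95% binomial interval 99.2 to 100%, median depth 21880 UMIs) and in 55.9% of 526 pachytene cells (51.5 to 60.2%, median depth 20843). Cells of both mice are pooled in these shares, so the intervals do not cover the spread between mice. After each cell was thinned to 5000 UMIs, these shares were 99.6% and 18.3%. Of the 7 Sertoli-like cells, 1 had a Kif2b UMI before thinning (median depth 12039) and none after it, too few cells to fix a background share. Markers of elongating or condensing spermatids stood at 5.25% of their own class in the Sertoli-like cells, and round spermatid markers at 2.96%.

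In elongating or condensing cells Kif2b had 1566 and 2003 normalised CPM, higher than in round cells (log2 fold change 0.57 ± 0.17 SE, adjusted p = 0.0074), but the sign turned when scaled by total UMIs (-0.29), by UMIs per cell (-0.77) and without the smaller cluster of this class (-0.29). The class joined clusters of 514 and 193 cells with median depths of 11718 and 23995 UMIs. In plain CPM, Kif2b had 415 and 454 in the larger and 1536 and 1726 in the smaller one, against 1106 and 1195 in round cells. The smaller cluster thus held more Kif2b per UMI than round cells, and the larger one less, in both mice.

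Kif2c, which corrects the attachment of chromosomes at the centromere, had 29.1 and 27.9 normalised CPM in early and 64.5 and 53.8 in pachytene cells (log2 fold change 1.06 ± 0.17 SE, adjusted p = 2e-05). It had 85.5 and 87.3 in round cells, higher than in pachytene cells by 0.55 ± 0.14 on the log2 scale, but with UMIs per cell the sign turned (-0.33). In elongating or condensing cells its level was 939 and 975, a rise that held under every scaling tried (log2 fold change 3.47 ± 0.15 SE, adjusted p = 8.6e-14). This gene of chromosome segregation was at its highest level in the class named after post-meiotic cells, and it was high in both clusters of the class, at 569.9 and 627 CPM in the larger and 359 and 385 in the smaller. Within the sub-family, Kif2a held 67.1% and 68.1% of the UMIs in pachytene cells, and Kif2b 85.4% and 85.7% in round cells. In elongating or condensing cells Kif2b still held 59.8% and 64.4%, and Kif2c 35.9% and 31.4%.

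**Figure D4:**
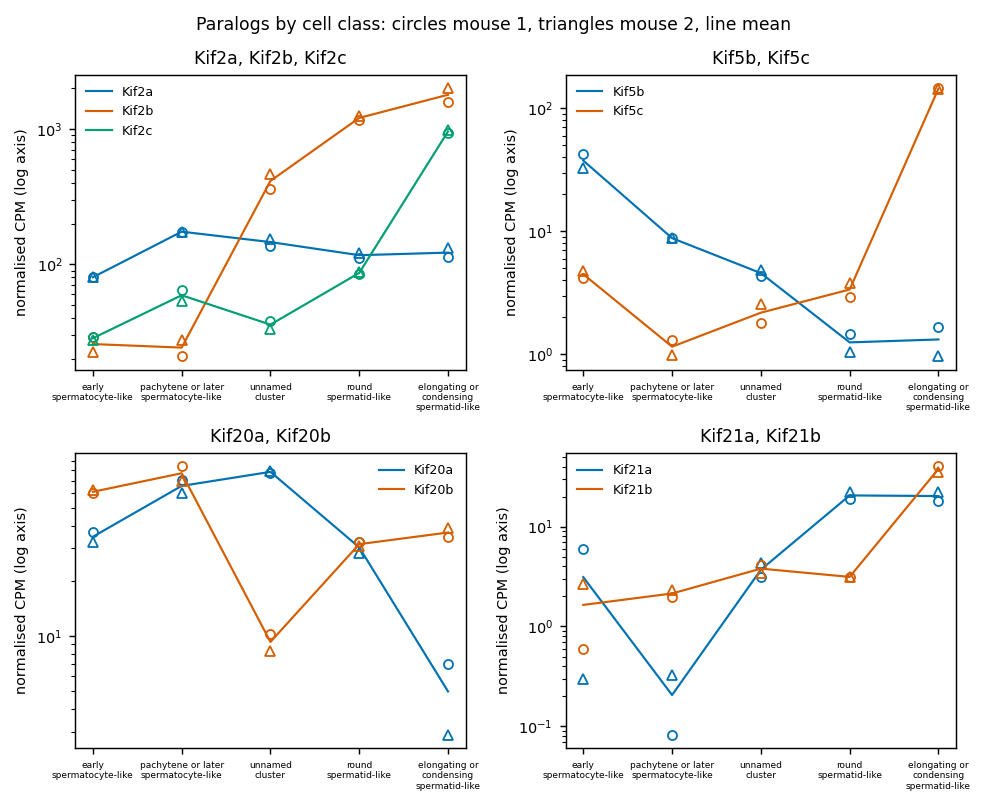
Each panel gives the normalised CPM (log y axis) of related kinesin genes in 5 cell classes (x axis), with circles for mouse 1, triangles for mouse 2 and a line through the mean. Kif2b passes Kif2a in the unnamed cluster, Kif5c passes Kif5b from round cells on, Kif20b dips in the unnamed cluster, and Kif21b passes Kif21a in the last class.

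The promoters of Kif2b and Kif2c are shown because the genes are relatives with different courses, and that of Kif23 because it stands for the division kinesins that rose into pachytene cells. Sequences are from RefSeq on GRCm38.p6, 250 bases before to 50 after the gene start, 5′ to 3′ on the gene's strand. Capitals mark the letters TTTGAA or TTCAAA, the core of the cell cycle homology region that is found in promoters of cell cycle genes, and TGACG or CGTCA, a partial cyclic AMP response element. The regions are chr11:91577506-91577805, minus strand for Kif2b, chr4:117178723-117179022, minus strand for Kif2c and chr9:61946750-61947049, minus strand for Kif23. In the annotation, whose gene starts can differ from those of RefSeq, the gene bodies lie at chr11:91575315-91577558 on the minus strand for Kif2b, chr4:117159639-117182639 on the minus strand for Kif2c and chr9:61915905-61946774 on the minus strand for Kif23. The Kif2c window lies inside the gene body.
Kif2b: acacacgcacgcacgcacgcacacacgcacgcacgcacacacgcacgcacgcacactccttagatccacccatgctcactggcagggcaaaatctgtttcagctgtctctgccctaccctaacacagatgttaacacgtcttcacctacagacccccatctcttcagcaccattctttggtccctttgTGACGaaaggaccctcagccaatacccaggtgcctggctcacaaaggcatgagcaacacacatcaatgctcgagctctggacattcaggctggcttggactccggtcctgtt
Kif2c: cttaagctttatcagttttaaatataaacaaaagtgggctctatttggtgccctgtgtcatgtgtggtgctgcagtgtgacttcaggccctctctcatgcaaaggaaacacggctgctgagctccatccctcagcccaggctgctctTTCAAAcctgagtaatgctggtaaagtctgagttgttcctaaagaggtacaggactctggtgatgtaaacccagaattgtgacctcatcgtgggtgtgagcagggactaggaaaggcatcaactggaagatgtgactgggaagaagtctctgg
Kif23: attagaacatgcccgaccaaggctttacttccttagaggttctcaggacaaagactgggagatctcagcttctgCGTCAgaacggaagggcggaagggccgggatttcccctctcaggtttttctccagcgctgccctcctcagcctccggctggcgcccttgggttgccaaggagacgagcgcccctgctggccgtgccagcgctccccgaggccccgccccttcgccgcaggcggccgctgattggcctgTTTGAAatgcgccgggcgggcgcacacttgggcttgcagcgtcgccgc

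RefSeq promoters were matched for 34 of 43 kinesin rows, which gave 38 promoters. The letters TTTGAA were found on either strand in 36.8% of them and in 17.9% of all 32851 promoters of the table. By role, 11 of 14 division kinesins, 1 of 8 of the cilium and flagellum and 2 of 12 of the others had them. Kif2c and Kif23 are among the 11, and Kif2b is not. The letters TGACG stood in 44.7% of the 38 and in 20.8% of all promoters, and CCAAT in 47.4% and 37.4%. GTTGCC, a part of the X-box of ciliary genes, stood in 28.9% and 12.5%, and AACNGTT, a site of MYB factors, in 2.63% and 4.45%. These are matches of letters in a window, not binding sites.

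Kinesins of the spindle and of cytokinesis mostly peaked in pachytene cells or in the unnamed cluster. Kif23, a part of the centralspindlin complex that holds the midzone together in cytokinesis, had 9.51 and 8.99 normalised CPM in early and 60.3 and 64.4 in pachytene cells (log2 fold change 2.76 ± 0.20 SE, adjusted p = 1.2e-09). It fell to 18.3 and 16.9 in round cells (log2 fold change -1.83 ± 0.16 SE, adjusted p = 2.9e-09) and to 4.37 and 3.20 in elongating or condensing cells (-2.21 ± 0.26). The groups did not overlap in any of these steps. Kif20a, which brings the chromosomal passenger complex to the midzone, had 36.9 and 32.7 in early, 71.3 and 60.5 in pachytene and 77.9 and 79.4 in unnamed cells. Its level was 32.6 and 28.2 in round and 7.05 and 2.88 in elongating or condensing cells, a fall at both steps (-1.12 ± 0.18 and -2.61 ± 0.27).

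Kif20b, a relative of Kif20a that also acts in cytokinesis, took another course. From 60.1 and 62.3 normalised CPM in early to 84.4 and 70.2 in pachytene cells, the adjusted p was 0.088 without and 0.042 with a block for the mouse. It then had 10.3 and 8.25 in the unnamed cluster, a fall (log2 fold change -3.07 ± 0.17 SE, adjusted p = 3.5e-12). In round cells it stood at 32.4 and 31.0, higher again than in the unnamed cluster (log2 fold change 1.78 ± 0.18 SE, adjusted p = 9e-08), and its level was 34.6 and 38.7 in elongating or condensing cells. Kif15, which helps to keep the spindle bipolar, had a similar dip. It stood at 32.7 and 28.8 in early, 10.1 and 9.12 in pachytene, 1.79 and 1.82 in unnamed, 9.01 and 5.53 in round and 39.0 and 52.8 in elongating or condensing cells. Kif15 fell from early to pachytene cells (log2 fold change -1.65 ± 0.23 SE, adjusted p = 4.2e-06) and rose from round to elongating or condensing cells (log2 fold change 2.69 ± 0.24 SE, adjusted p = 6.2e-09), so that its ends were high and its middle low in both mice.

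Kif18a, which dampens the movement of chromosomes on the spindle, had 13.1 and 12.3 normalised CPM in early, 33.6 and 30.0 in pachytene and 7.05 and 6.72 in elongating or condensing cells, with a rise in the first step (log2 fold change 1.34 ± 0.20 SE, adjusted p = 1.1e-05) and a fall in the last (-1.78 ± 0.22). Kif18b, its relative at growing microtubule ends, had 1.78 and 2.10 in early and 16.7 and 14.0 in pachytene cells (log2 fold change 2.94 ± 0.35 SE, adjusted p = 5.9e-07). It had 20.8 and 21.6 in the unnamed cluster and 3.36 and 4.48 at the end. The rise of Kif18b from early to pachytene cells was the largest among the described rows. It starts from few UMIs, since Kif18b gave 12.0% and 14.6% of the 25 and 48 UMIs of the pair in early cells. Kif22, a motor that binds chromosome arms, had 25.6 and 17.1, 35.4 and 36.0 and 4.03 and 6.40 in early, pachytene and elongating or condensing cells. Kif11, which pushes the spindle poles apart, had 10.1 and 13.2, 20.5 and 16.7 and 2.69 and 2.56 in the same classes. Both rose in the first step (adjusted p = 0.004 and 0.042), calls that were lost when scaled by total UMIs, and both fell in the steps after it under every scaling.

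Kifc1, a motor that walks towards microtubule minus ends and focuses spindle poles, had 11.5 and 11.9 normalised CPM in pachytene and 0.731 and 1.56 in round cells (log2 fold change -3.25 ± 0.38 SE, adjusted p = 1.7e-07). Its close copy Kifc5b had 45 and 39 UMIs in pachytene cells and none in round cells of either mouse, which allows up to 3 UMIs per library. Of the 98-base words near the transcript end of Kifc1, 19.1% also occur in Kifc5b, so reads of the 2 genes may have been lost or split, and their values are uncertain. Of the division kinesins with fewer UMIs, Kif14, which acts at the midbody, had 226 UMIs and was lower in round than in pachytene cells (log2 fold change -1.38 ± 0.34 SE, adjusted p = 0.0011). Kif4, a chromosome motor encoded on the X chromosome, had 58 UMIs, with 13 and 6 in pachytene and 13 and 20 in the unnamed cluster and none in early or in elongating or condensing cells. Its call from early to pachytene cells rests on these counts, and DESeq2 did not make it.

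Kinesin rows of the cilium and flagellum took different courses. In the last step 4 of them fell and 2 rose, and neither rise was called under every scaling. Kif3a and Kif3b, the motors that carry intraflagellar transport outwards, stood at 161 and 139.7 and at 176 and 161 normalised CPM in pachytene cells. In elongating or condensing cells Kif3a had 64.8 and 81.3 and Kif3b 39.3 and 32.3. Both fell in this last step, with log2 fold changes of -0.99 ± 0.15 for Kif3a and -1.44 ± 0.16 for Kif3b, from 139 and 151 and 104 and 89.9 in round cells. Kif3b also rose from early to pachytene cells (log2 fold change 1.06 ± 0.14 SE, adjusted p = 3.9e-06), whereas Kif3a, with 114 and 122 in early cells, had an adjusted p of 0.056 without and 0.013 with a block for the mouse. The third member of the sub-family, Kif3c, had 28 UMIs.

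Kif9, a motor of the central pair of the flagellum, rose from 47.6 and 52.7 normalised CPM in early to 119 and 97.8 in pachytene cells (log2 fold change 1.11 ± 0.15 SE, adjusted p = 4.8e-06). It kept 123 and 126 in round cells and fell to 87.0 and 81.3 in the last class (-0.56 ± 0.14). Kif6, its relative, went the other way at first. It had 26.2 and 27.3 in early, 16.958 and 17.9 in pachytene and 4.14 and 3.98 in round cells and fell at both steps (adjusted p = 0.021 and 2.7e-07), although the first call was lost with UMIs per cell. Kif6 gave 35.5% and 34.1% of the UMIs of the pair in early and 3.26% and 3.07% in round cells.

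Kif17, which takes part in ciliary transport and is known in spermatids as a partner of a coactivator of the factor CREM, had 4.12 and 4.50 normalised CPM in pachytene and 38.5 and 42.029 in round cells (log2 fold change 3.23 ± 0.18 SE, adjusted p = 1.7e-12). Its 29.3 and 28.6 in the unnamed cluster lay between these, and its 40.0 and 38.1 in elongating or condensing cells overlapped the round values. Kif27, which acts in motile cilia, had 30.3 and 34.5, 42.8 and 44.6, 89.9 and 107, 161 and 166 and 346 and 335 along the 5 classes. The groups did not overlap. Its rise from pachytene to round cells (log2 fold change 1.90 ± 0.14 SE, adjusted p = 9.8e-11) held under every scaling, while the rise to elongating or condensing cells (1.06 ± 0.13) turned to -0.29 with UMIs per cell.

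The promoter of Kif17 is shown with that of Kif5c, a cargo motor that also rose in spermatids, because each holds the full palindrome TGACGTCA of the cyclic AMP response element, which 7.89% of the 38 kinesin promoters and 1.79% of all promoters hold. The third kinesin promoter with it is that of Kif18a, which fell from round to elongating or condensing cells. The promoters of Kif2b, Kif16bos, Kif21a and Kif27, which rose from pachytene to round cells, do not hold it. Whether these letters bear on the level of any of the genes was not tested. The regions are chr4:138262001-138262300, plus strand for Kif17, inside the gene annotated at chr4:138250435-138301967 on the plus strand, and chr2:49619036-49619335, plus strand for Kif5c, at the start of the gene at chr2:49619298-49774778 on the plus strand. Capitals mark the same letters as above.
Kif17: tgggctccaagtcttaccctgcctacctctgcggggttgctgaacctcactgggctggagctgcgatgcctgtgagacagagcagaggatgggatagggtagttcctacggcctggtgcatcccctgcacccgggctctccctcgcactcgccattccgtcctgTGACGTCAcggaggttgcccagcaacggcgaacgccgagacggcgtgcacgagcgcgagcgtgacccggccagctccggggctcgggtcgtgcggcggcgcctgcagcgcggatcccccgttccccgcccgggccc
Kif5c: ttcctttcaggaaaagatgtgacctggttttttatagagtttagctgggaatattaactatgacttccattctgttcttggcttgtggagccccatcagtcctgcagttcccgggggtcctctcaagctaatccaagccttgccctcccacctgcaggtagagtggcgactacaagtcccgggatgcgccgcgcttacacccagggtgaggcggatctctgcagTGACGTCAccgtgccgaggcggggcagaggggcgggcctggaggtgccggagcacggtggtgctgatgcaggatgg

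Among cargo motors, the Kif5 genes, heavy chains of the classical transport kinesin, exchanged places. Kif5b, the form present in most tissues, had 42.2 and 33.0 normalised CPM in early, 8.81 and 8.79 in pachytene and 1.46 and 1.04 in round cells and fell at both steps (log2 fold change -2.07 ± 0.22 SE, adjusted p = 1.6e-07, then log2 fold change -2.83 ± 0.35 SE, adjusted p = 2.8e-07). Kif5c, best known from neurons, had 2.92 and 3.81 in round and 146 and 143 in elongating or condensing cells (log2 fold change 5.39 ± 0.22 SE, adjusted p = 4.7e-14). Neither mouse overlapped between these groups. Kif5b made up 91.0% and 82.1% of Kif5 UMIs in early cells, and Kif5c made up 98.9% and 99.3% in elongating or condensing cells. A Kif5c UMI was found in 60.3% of 707 elongating or condensing cells (56.5 to 63.9%, median depth 13220 UMIs) and in 4.56% of 526 pachytene cells (2.94 to 6.71%, median depth 20843). These intervals also pool the cells of both mice and do not cover the spread between mice.

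In the lower range, Kif5c had 4.16 and 4.79 in early and 1.32 and 0.989 in pachytene cells and fell between them (adjusted p = 0.00023). In plain CPM these were 8.61% and 1.84% of its highest class, above the 3.39% of elongating or condensing markers in early and below their 2.35% in pachytene cells. The rise from pachytene to round cells (adjusted p = 0.00039) was lost with UMIs per cell. Kif5a, the third heavy chain, had 39 UMIs in 18 cells, of which 24 were in pachytene cells of mouse 1, 3 in those of mouse 2 and none in round cells.

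Kif21a and Kif21b, motors that also restrain microtubule growth, rose at different steps. Kif21a had 0.0823 and 0.330 normalised CPM in pachytene and 19.0 and 22.1 in round cells (adjusted p = 5.8e-10), from 1 and 3 UMIs and 78 and 128 UMIs. Its fall from early to pachytene cells (adjusted p = 0.0056) rests on mouse 1, with 5.95 and 0.300 in early cells, and turned to 0.07 without it. Kif21b had 3.17 and 3.11 in round and 40.3 and 35.5 in elongating or condensing cells (log2 fold change 3.59 ± 0.29 SE, adjusted p = 1.2e-09), so that the 2 relatives changed in successive steps.

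Kifc3, a minus-end motor of membrane traffic and cell junctions, had 20.7 and 18.9 normalised CPM in pachytene, 14.6 and 19.2 in round and 92.0 and 117 in elongating or condensing cells (log2 fold change 2.61 ± 0.19 SE, adjusted p = 2.1e-10). Its level in early cells was 12.5 and 14.7, and the step to pachytene cells had an adjusted p of 0.059 without and 0.021 with the block. Kif1a, a motor of vesicle transport in axons, had 95 UMIs, with 1 and 2 in round and 38 and 46 in elongating or condensing cells (adjusted p = 2.2e-08). It passed the filter on low counts only through this last class, in which it is high, so its call is not independent of the filter. Together with Kif2c, Kif5c, Kif15 and Kif21b, the rows Kifc3 and Kif1a were the 6 that rose in the last step under every scaling tried. Kif16b, which moves early endosomes, took the opposite course with 24.3 and 19.9 in pachytene and 3.02 and 4.16 in elongating or condensing cells, a fall from 17.5 and 13.8 in round cells (log2 fold change -2.10 ± 0.29 SE, adjusted p = 3.8e-06).

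Kif1b, a motor of mitochondria and vesicles, differed between the mice in neighbouring classes. It had 7.74 and 17.037 normalised CPM in the unnamed cluster and 8.77 and 21.6 in round cells. In plain CPM mouse 2 stood 2.16 times above mouse 1 in the unnamed cluster (exact 95% interval of counting error 1.57 to 3.01) and 2.46 times in round cells (1.69 to 3.67), whereas in early cells the ratio was 1.25 (0.797 to 2.02). Its level in early cells was 16.1 and 22.5, and the change from early to pachytene cells had an adjusted p of 0.078 without and 0.0047 with a block for the mouse. Of 142 pairs of a kinesin row and a class with at least 20 UMIs, 31 had an interval of the mouse ratio without 1, and in 8 of these the ratio was also past 1.5-fold. These were Kif1b in the 2 classes above, Kif6 and Kif11 in the unnamed cluster, Kif22 and Kif1bp in early cells, Kif5a in pachytene cells and Kif20a in elongating or condensing cells, named after their values were seen. How many pairs pass over all rows was not counted, so these numbers cannot be read as a trait of kinesin rows.

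The 2 rows that are no motors were both high in spermatids. Kif1bp, whose product blocks some kinesins from binding microtubules, fell from 43.4 and 31.8 normalised CPM in early to 15.1 and 17.6 in pachytene cells (log2 fold change -1.17 ± 0.18 SE, adjusted p = 1.7e-05). It then rose to 143 and 142 in round cells (log2 fold change 3.13 ± 0.16 SE, adjusted p = 2.8e-13), and its 119 and 131 in the unnamed cluster was close to this. Kif16bos lies at chr2:142902965-142903572 on the plus strand, 1434 bases beyond the 5′ end of Kif16b, which is annotated at chr2:142617474-142901531 on the minus strand. It had 1.56 and 1.98 in pachytene cells and 50.2 and 46.9 in round cells (log2 fold change 4.78 ± 0.25 SE, adjusted p = 4.3e-13). In plain CPM the pachytene level was 3.84% of its highest class, beside 2.35% for the markers of that class. Its further rise to 115 and 90.9 in elongating or condensing cells (1.08 ± 0.18) turned to -0.27 with UMIs per cell. In normalised CPM, Kif16b was lowest among the spermatid classes where its neighbour Kif16bos was highest, in both mice. With UMIs per cell this did not hold, since Kif16bos was then highest in round cells.

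The unnamed cluster was also compared with the pachytene and the round class. Relative to pachytene cells it had 11 rows higher and 11 lower, beside 31.6% and 29.1% of all rows, and from it to round cells 8 rose and 10 fell, beside 24.6% and 19.3%. Kif1bp (2.94 ± 0.16), Kif17 (2.75 ± 0.18), Kif16bos (3.24 ± 0.26) and Kif2b (4.09 ± 0.20) were higher there than in pachytene cells. The fall of Kif23 (-1.65 ± 0.17), Kif22 (-1.21 ± 0.20), Kif20a (-1.38 ± 0.18) and Kif11 (-0.63 ± 0.23) was in contrast called between the unnamed cluster and round cells, that of Kif11 not with DESeq2 size factors. The division kinesins Kif23, Kif22, Kif20a and Kif11 were thus high in the same cluster as these spermatid rows. This did not hold for division kinesins as a group. Of the 15, 3 were called higher and 6 lower in the unnamed cluster than in pachytene cells, and Kif20b and Kif15 had their lowest level there. Whether single cells of the unnamed cluster hold both kinds of row was not examined. With a block for the mouse, Kif9 and Kif20a were also called higher in the unnamed cluster than in pachytene cells (adjusted p = 0.021 and 0.038), Kif2a and Kifc3 lower (0.031 and 0.036), and Kif2a, Kif18a and Kifc5b lower in round cells than in the unnamed cluster (0.014, 0.04 and 0.039).

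The size and in part the sign of these changes depended on the scaling. Relative to TMM, the median of all rows moved by 0.40, -0.87 and -1.34 on the log2 scale in the 3 steps with UMIs per cell, by -0.27, -0.32 and -0.86 with total UMIs, and by -0.22, 0.22 and 0.11 with DESeq2 size factors. From early to pachytene cells, 12 of 15 rises and 7 of 9 falls were called under all 4 scalings. From pachytene to round cells these were 7 of 9 and 14 of 16, and from round to elongating or condensing cells 6 of 10 and 11 of 12. Among the described rows in these steps, the signs of Kif2c, Kif2b, Kif16bos and Kif27 turned as given above, and the other called rows kept their sign under all 4 scalings. A scaling per cell counts fewer UMIs in small or condensing cells, and whether these hold less RNA or were captured less well cannot be told apart.

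**Figure D5:**
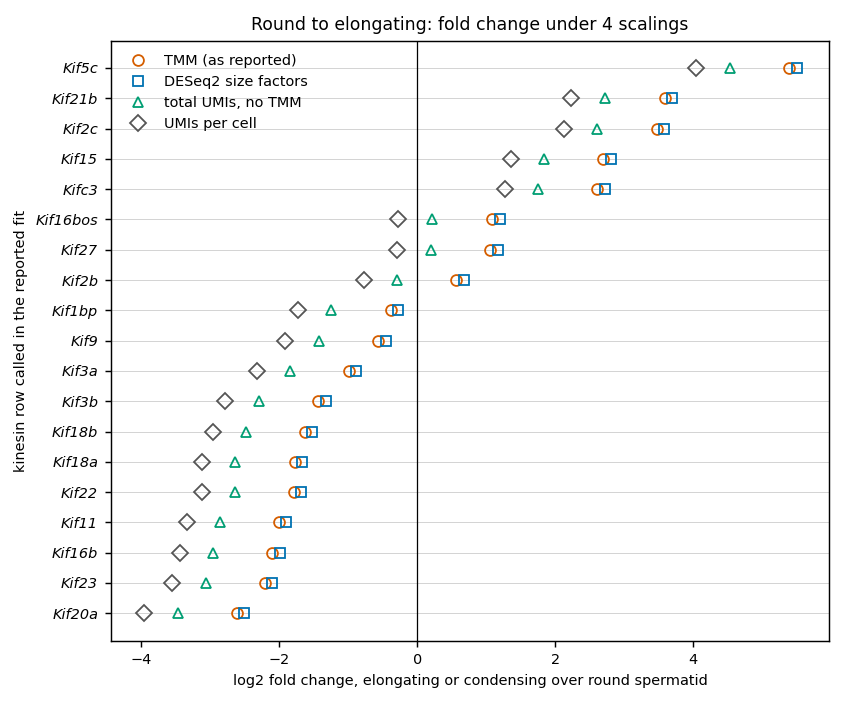
Points give the log2 fold change from round to elongating or condensing spermatid-like cells (x axis) under 4 scalings for the described kinesin rows called with TMM (y axis). Kif5c, Kif21b, Kif2c, Kif15 and Kifc3 stay right of 0 under every scaling, Kif16bos, Kif27 and Kif2b cross 0, and the 11 rows below them stay left of 0.

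Within the elongating or condensing class, the clusters of 514 and 193 cells differed for several rows, given here as plain CPM with no test, since clusters cut from the same cells are no replicates. Kif20b had 6.10 and 6.05 CPM in the larger and 39.3 and 36.4 in the smaller cluster, Kif1bp 35.2 and 33.8 and 93.2 and 86.1, and Kif15 13.9 and 19.7 and 32.0 and 36.8. Kif16bos (70.5 and 58.3 against 42.2 and 36.1) and Kif21b (25.2 and 24.8 against 14.1 and 11.8) were lower in the smaller cluster, and Kif5c had 80.2 and 69.7 and 71.4 and 81.1, which overlapped. Of the 58 calls of single described rows, only the 8 rises and 11 falls from round to elongating or condensing cells involve this class. The other calls compare classes that kept the same cells. Without the smaller cluster, 57 of the 58 calls were made again, and that of Kif2b in this step turned its sign.

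The small classes held too few cells for a test, and their values are counts with exact Poisson intervals that cover counting error only. Kif5b had 47 UMIs in the 7 Sertoli-like cells, or 554 CPM (407 to 737), 16 in the 5 Leydig-like cells, or 316 CPM (180.3 to 512), and 19 in the 6 spermatogonium-like cells, or 291 CPM (175 to 454). These levels lay above the 65.0 and 45.4 CPM of early spermatocyte-like cells, its highest large class. Kif21a had 23 UMIs in Sertoli-like cells, all of mouse 1, which gave 6 of the 7 cells. Kif3b had no UMI in the spermatogonium-like cells, which allows up to 45.9 CPM at 3 counts. Kif23 had 12 UMIs there, or 184 CPM (94.9 to 321), and Kif20b 15, or 229 CPM (128 to 378).

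Partner genes of kinesins were taken as a list of 23, all of which were tested in the same fit. In the 3 steps 11, 4 and 8 rose and 6, 16 and 8 fell, to be read against the shares of all rows above, with median log2 fold changes of 0.38, -1.51 and -0.45. Kifap3, the protein that joins Kif3a and Kif3b to their cargo, rose from 73.9 and 73.8 normalised CPM in pachytene to 671 and 667 in round cells (log2 fold change 3.18 ± 0.14 SE, adjusted p = 3.2e-14). It stood at 854 and 843 in the last class, a change (0.34 ± 0.13, adjusted p = 0.031) that turned to -0.52 with total UMIs and -1.004 with UMIs per cell. The transport proteins Ift20 and Ift88 fell from round to elongating or condensing cells (-0.95 ± 0.15 and -1.16 ± 0.16), and Ift88 had risen in the step before (1.26 ± 0.14).

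Partners in division were mostly highest in pachytene cells. Aurka, a kinase of the spindle poles, had 85.0 and 90.2, 524 and 475 and 56.7 and 48.3 normalised CPM in early, pachytene and round cells (2.51 ± 0.15 and then -3.26 ± 0.15). Incenp, Birc5 and Cdca8 of the chromosomal passenger complex fell from pachytene to round cells (log2 fold changes -1.51 ± 0.19, -1.88 ± 0.14 and -4.43 ± 0.18). Cenpe, a kinesin of the kinetochore outside the naming rule, had 179.8 and 155 in pachytene and 10.7 and 9.60 in elongating or condensing cells. Klc3, a light chain of the Kif5 motors that was singled out after its values were seen, had 3.17 and 5.02 in round and 166 and 188 in elongating or condensing cells (log2 fold change 5.38 ± 0.21 SE, adjusted p = 3.7e-14), the class in which Kif5c was high.

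The other rows under 300 UMIs were Kif24 (216 UMIs), Kif19a (189), Kif13b (139), Kif13a (126), Kif26b (39), Kif7 (21), Kif1c (15), Kifc2 (12) and Kif12 (1), and no UMI was found for Kif26a. Kif19a, which sets the length of cilia, had 89 and 44 UMIs in pachytene and 3 and 0 in round cells and fell (adjusted p = 9.9e-06). It was called higher again in the last step, from 0.731 and 0 to 3.02 and 3.20 normalised CPM. That call rests on few UMIs and was not made under every scaling. Kif24, a centriole motor, had 50 and 33 in pachytene and 4 and 1 in elongating or condensing cells and fell in the last step (adjusted p = 0.012). Kif13a and Kif13b, relatives in membrane transport, leaned to different classes. Kif13b had 45 and 33 UMIs in pachytene cells against 4 and 4 of Kif13a, and in the unnamed cluster these were 5 and 14 against 27 and 32. From pachytene to round cells Kif13b had an adjusted p of 0.066 without and 0.047 with the block.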

How the data were processed

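Single-cell RNA-seq libraries (10x Chromium, 3′ version 2 chemistry) of whole testes of 2 mice were used. The authors made the deposited count matrix with Cell Ranger 2.0.0 (demultiplexing with bcl2fastq 2.17.1.14) on the repeat-masked mm10 genome with repeat sequences added, combined both libraries after downsampling reads to equal depth per cell, and kept called cells, with raw UMI counts per row as the unit. In such counting, a read that matches several genes is left out.

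From these counts, log values of 27725 rows were reduced to 10 principal components and clustered by K-means (scikit-learn 1.9.0, 9 clusters). Each cluster was matched to the marker list with the highest mean standardised level. It was named where at least 3 markers of that list passed 1.5 times the level of all cells. Doublets (25 cells, scanpy 1.11.5) were kept, and their removal was an alternative. UMIs were summed per mouse and class, from 1091527 to 10425603 per sum. All classes with at least 20 cells per mouse were fitted together with edgeR 4.0.16 (quasi-likelihood test, TMM, filter on low counts by filterByExpr, R 4.3.3), and calls were made at an adjusted p under 0.05. The test gives no standard error. Each SE was worked back as the absolute log2 fold change over the square root of the F statistic, and is approximate. On simulated data for pachytene against round cells, 174 of 200 changes of 4-fold were recovered among 13843 rows, with 18 false calls. All other simulated rows were equal between the classes, whereas in the data 36.9% of rows were called higher and 37.2% lower in this step. The simulation therefore cannot tell how TMM and the calls fare where so many rows change. The same mice gave every class, which pairs the sums. Deviations of same-mouse sums correlated by 0.0284 to 0.203 over 10 class pairs, and the fit with the mouse as a block is given where it changed a call. Other alternatives were DESeq2 1.42.0, its size factors, total UMIs, UMIs per cell, no filter, 10 clusters, another seed, kinesin and partner rows kept in the clustering, and each mouse left out. Intervals are exact. Those of counts cover counting error only, and those of shares of cells treat the pooled cells of both mice as independent. Neither covers the spread between mice.

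Rows with at least 300 UMIs were described in full and partner genes were named where called in 2 or more steps, at most 8. The kinesin rows, roles, markers and partner list were chosen with earlier results of these data known. Promoters came from a RefSeq table and gene positions from GENCODE, both on GRCm38.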

Additional observations from a re-analysis of the deposited data

Results flagged for a closer look

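A signal was present in a row that the comparisons did not use. Kif4-ps, annotated as a pseudogene of the X-linked chromosome motor Kif4 and left out by the naming rule, had 552 UMIs (296 in mouse 1 and 256 in mouse 2), against 58 UMIs of Kif4 itself. It stood at 20.2 and 20.6 CPM in early and at 23.6 and 23.7 CPM in pachytene cells. In the unnamed cluster it had 3.57 and 2.04 CPM, in round cells 1.17 and 1.16, and in elongating or condensing cells 0.353 and 0.842. No Kif4-ps UMI was found in the 18 cells of the small classes. Of the 98-base words near the transcript ends of Kif4, 0% also occur in another annotated gene. This covers exact matches only, and whether some of these reads came from Kif4 was not tested.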

How the results depend on the processing

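Of 638 refitted log2 fold changes of described kinesin rows (58 values, 11 alternatives), 608 kept direction and call, 24 lost the call and 6 changed sign. Another seed, and kinesin and partner rows kept in the clustering, gave nearly the same clusters as the main setting. That all 58 calls were made again under each of these says little. With UMIs per cell the sign turned for Kif2c from pachytene to round cells (-0.33) and for Kif2b (-0.77), Kif16bos (-0.27) and Kif27 (-0.29) from round to elongating or condensing cells. For Kif2b it also turned with total UMIs (-0.29) and without the smaller cluster of the class (-0.29), both chosen after seeing the data. Kif21a from early to pachytene cells ranged from -3.89 to 0.0657 with 1 mouse left out. Of 116 such values of described rows, 31 moved by more than the spread between the mice. This count cannot tell how far a result rests on 1 mouse, since the spread came from the same mice as the values.

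With UMIs per cell, 6 kinesin rows were higher and 23 lower from round to elongating or condensing cells and also from pachytene to unnamed cells, and 2 partner genes were higher from pachytene to round and 2 higher and 18 lower from round to elongating or condensing cells. With total UMIs, 16 kinesin rows were lower from unnamed to round cells, and 3 partners were higher and 15 lower in the last step, where 4 were higher without the filter. With UMIs per cell, the median of all rows itself moved by -1.34 from round to elongating or condensing cells. From pachytene to unnamed cells it moved by -0.80. The shares of all rows called under these settings were not counted, so these counts cannot be read as a trait of kinesin or partner rows. The summed level of elongating over round cells, 0.938 in plain CPM, became 0.671 with UMIs per cell and 0.736 without the smaller cluster, and turned to 1.71 with TMM, which also raised round over early cells from 2.01 to 3.05 and was added after seeing the data. The cause was not tested.

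The block for the mouse changed none of the 58 calls, added 12 calls of kinesin rows and gave counts of 18 higher and 10 lower, 9 and 17, and 10 and 12 in the 3 steps, beside 10 and 8, 10 and 12, and 10 and 11 with DESeq2. The shares of all rows called in these 2 fits were not counted either. A rule that left clusters with close scores unnamed met no cluster and gave no value. Counts of calls with 1 mouse left out cannot be given, since no residual degrees of freedom remain. With 2 mice, members under 50 UMIs (8 rows) could show only very large changes.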
